A study of Mus musculus with 5 samples.

Results

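The contacts described here join the neighbourhoods on either side of the Shh domain and so skip over the domain itself. They were taken from capture Hi-C maps, in which DNA ends that lay close together in fixed nuclei are ligated, pulled down with probes for 1 locus and sequenced as pairs. Each map divides 27.48 to 30.27 Mb of chromosome 5 (mm10) into 5 kb bins. A bin pair was a member if its left bin lay between 28.105 and 28.445 Mb and its right bin between 29.36 and 29.74 Mb. The left flank (340 kb) holds En2, Cnpy1 and Rbm33, and the right flank (380 kb) holds Nom1, Mnx1 and Ube3c. The 68 left bins and 76 right bins give 5168 members of 155,961 bin pairs, 920 to 1630 kb apart. Of these, 176 join an En2 or Cnpy1 bin with a Mnx1 or Nom1 bin and were left out in a second pass, which kept 4992.

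Limb buds from mouse embryos at E10.5 were used, with 1 library for each of 5 homozygous genotypes. Embryos of intraTAD2-i4CTCF, intraTAD3 and intraTAD2 were bred by mating. Those of intraTAD2-1xBorCTCF and intraTAD2-2xBorCTCF were made by tetraploid aggregation, a method that grows an embryo from cultured stem cells beside a tetraploid host. The compound names are shortened below to i4CTCF, 1xBorCTCF and 2xBorCTCF, and all extend the name intraTAD2. The sources used here do not say what each allele changes. The comparison map is the authors' wild-type map, which belongs to no sample, so genotype and origin of the library cannot be told apart in any ratio to it. Limb bud identity could not be checked, since contact maps hold no expression.

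As background, mammalian chromosomes fold into topologically associating domains, within which DNA touches more often than across their borders. Cohesin extrudes loops of chromatin and is held at many borders by the DNA-binding protein CTCF. When loops join borders, or when stretches in the same chromatin state gather, regions on either side of a domain can touch each other without the domain between them. The Shh domain holds Shh, which encodes the secreted signal of the posterior limb bud, and most of Lmbr1, which carries the limb enhancer of Shh in an intron.

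Of the 6 named genes, En2 (28,165,696 to 28,172,190) and Mnx1 (29,473,823 to 29,478,470) encode homeodomain transcription factors, known for roles in the midbrain and hindbrain and in motor neurons and pancreas. Such developmental genes are often covered by Polycomb proteins where they are silent, and Polycomb-covered genes are known to touch over long distances. Cnpy1 (28,200,819 to 28,245,788) encodes a Canopy family protein that is known in zebrafish as a regulator of FGF signalling. Rbm33 (28,316,836 to 28,419,244) encodes an RNA-binding protein, Nom1 (29,434,659 to 29,452,169) a nucleolar protein with an MIF4G domain, and Ube3c (29,569,242 to 29,676,077) a ubiquitin ligase. The right flank also reaches the end of Lmbr1 that lies beyond the border and the first bases of Dnajb6, a chaperone gene.

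Promoters of Mnx1 and of some stretches in contact with it are shown first. That of Ube3c, a gene of the same flank as Mnx1 that met En2 near the average, is added. Each is 300 bases of RefSeq sequence (GRCm38.p6), from 250 bases before to 50 after a start, with CG dinucleotides in capitals. CG-rich promoters are the usual sites of Polycomb binding in mammals. Promoters of 5 of the 6 genes were matched in the sequence table, which has no entry for En2.
Mnx1, chr5:29478421-29478720, minus strand: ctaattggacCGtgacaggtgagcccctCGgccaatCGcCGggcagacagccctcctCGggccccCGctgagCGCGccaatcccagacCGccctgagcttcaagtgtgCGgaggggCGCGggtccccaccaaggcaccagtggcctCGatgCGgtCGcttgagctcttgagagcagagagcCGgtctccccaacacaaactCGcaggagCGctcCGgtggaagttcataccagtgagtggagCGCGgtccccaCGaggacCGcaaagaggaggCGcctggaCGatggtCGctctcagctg
Cnpy1, chr5:28210119-28210418, minus strand: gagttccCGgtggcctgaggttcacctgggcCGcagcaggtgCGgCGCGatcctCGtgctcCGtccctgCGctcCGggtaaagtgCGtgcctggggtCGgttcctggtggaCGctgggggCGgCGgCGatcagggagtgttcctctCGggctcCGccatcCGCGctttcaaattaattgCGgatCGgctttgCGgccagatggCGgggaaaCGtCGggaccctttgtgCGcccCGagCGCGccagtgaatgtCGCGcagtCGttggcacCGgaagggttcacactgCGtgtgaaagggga
Gm35223 (a long noncoding RNA gene left of En2), chr5:28123866-28124165, minus strand: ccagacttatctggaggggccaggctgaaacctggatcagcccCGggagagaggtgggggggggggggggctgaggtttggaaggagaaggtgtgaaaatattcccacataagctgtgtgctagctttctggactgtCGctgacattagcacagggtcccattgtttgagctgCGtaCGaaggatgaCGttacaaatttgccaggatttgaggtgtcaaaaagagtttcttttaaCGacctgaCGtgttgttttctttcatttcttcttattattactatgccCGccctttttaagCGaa
Ube3c, chr5:29568992-29569291, plus strand: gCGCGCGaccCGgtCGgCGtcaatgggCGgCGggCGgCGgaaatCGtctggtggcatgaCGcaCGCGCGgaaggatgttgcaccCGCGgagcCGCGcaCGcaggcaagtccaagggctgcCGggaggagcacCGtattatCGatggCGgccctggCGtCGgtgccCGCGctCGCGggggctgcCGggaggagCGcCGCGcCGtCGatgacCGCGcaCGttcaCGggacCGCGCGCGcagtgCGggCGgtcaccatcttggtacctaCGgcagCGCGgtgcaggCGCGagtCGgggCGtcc

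These promoters hold 26 CG in Mnx1, 34 in Cnpy1, 9 in Gm35223 and 53 in Ube3c, against a median of 7 over 32,851 promoters of the table. As many CG as in Mnx1 stood in 16.9% of all promoters, as many as in Cnpy1 in 7.73%, and as many as in Gm35223 in 45.8%. The Ube3c promoter, at 0.451%, was the most CG-rich of the 4. Whether CG number bears on contact was not tested.

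Members were read as distance-normalised contact, the balanced value of a bin pair divided by the mean of all pairs at the same distance in the same map, so that 1 is the average at that distance. Intervals are 95% intervals of counting error from the recovered contacts. Since each genotype has 1 library, no test and no spread between embryos could be had, so "beyond counting error" below means that an interval of a log2 ratio did not include 0. The maps held 1,121,373 (2xBorCTCF) to 2,942,790 (intraTAD2) contacts, 12,931 to 41,756 of them in the block, so the 2xBorCTCF values are the least precise.

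The flanks touched each other more than the average for their distance in every map. Mean contact over the 5168 members was 1.61 (interval 1.58 to 1.64) in i4CTCF, 1.69 (1.66 to 1.71) in intraTAD3, 1.68 (1.66 to 1.70) in intraTAD2, 1.53 (1.51 to 1.55) in 1xBorCTCF, 1.40 (1.37 to 1.43) in 2xBorCTCF and 1.71 (1.68 to 1.73) in wild type. The 3 highest maps, intraTAD2, intraTAD3 and wild type, did not differ among themselves beyond counting error, and the lowest pair were the maps from tetraploid aggregation. The excess was spread widely over the members: 59.8% (2xBorCTCF) to 77.3% (intraTAD2) of the bin pairs lay above 1, and the median pair stood at 1.25 in 2xBorCTCF, 1.55 in intraTAD2 and 1.51 in wild type. Outside the block at the same distances, the median pair stood at 0.687 in 2xBorCTCF, 0.776 in intraTAD2 and 0.725 in wild type. The share of pairs above 1 was not taken there. It also depends on depth, because shallow maps leave more pairs without a contact.

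**Figure D1:**
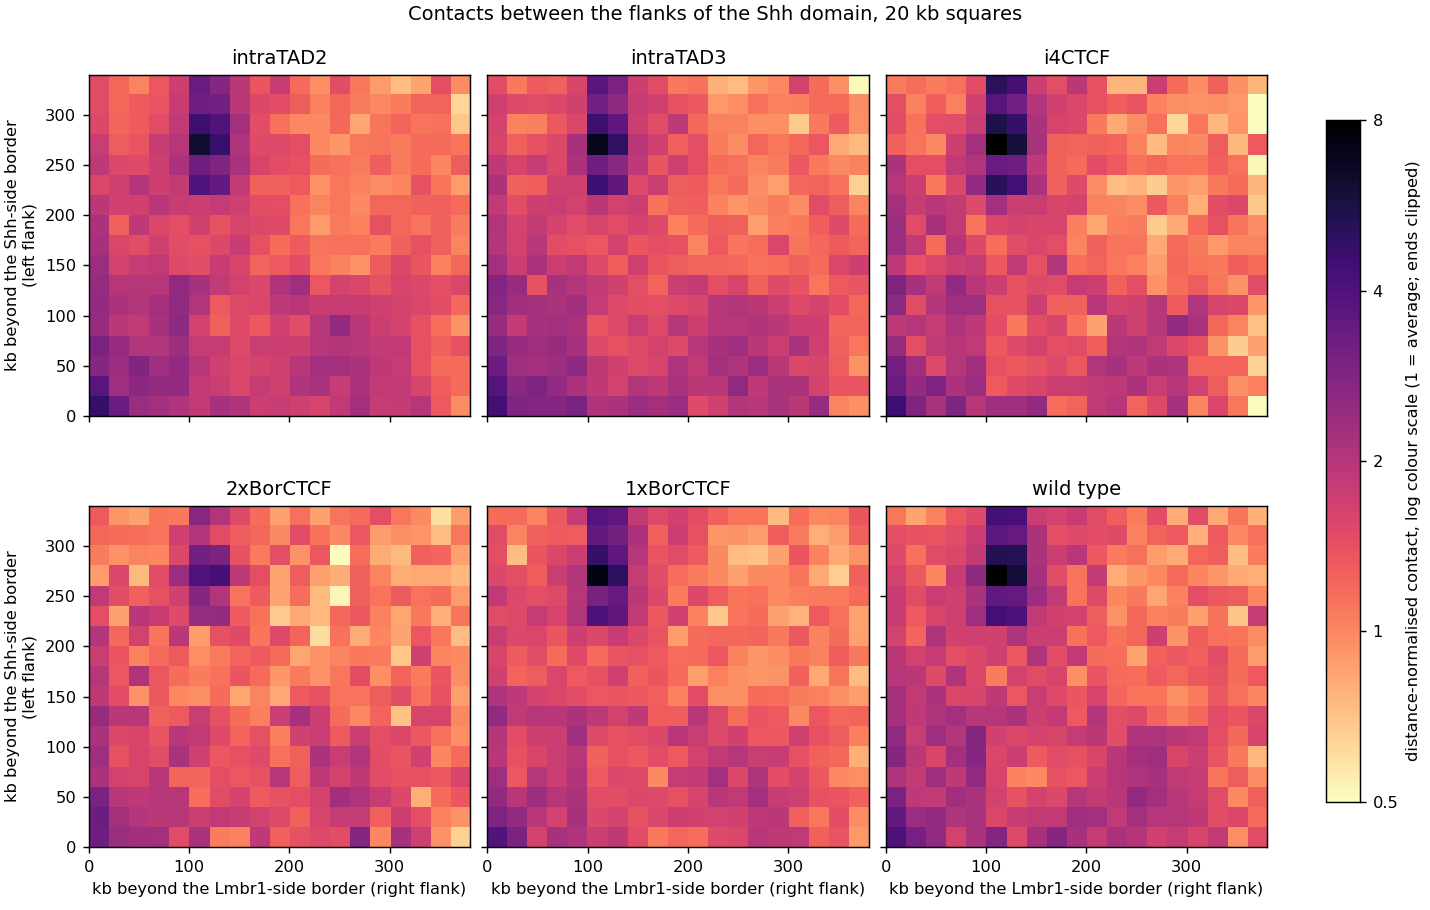
Distance-normalised contact of 20 kb squares of the block in each of the 6 maps, on a log colour scale where 1 is the average at that distance. Both axes give kb beyond the borders of the Shh domain. The darkest patch stands where En2 meets Mnx1 (about 270 and 115 kb). It lies in a stripe at Mnx1 that runs from about 230 to 330 kb on the left-flank axis. A patch weaker than that of En2 with Mnx1 stands where both borders meet (lower left).

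Leaving out the pairs of En2 or Cnpy1 with Mnx1 or Nom1 changed the block little. The remaining 4992 pairs averaged 1.56 in i4CTCF, 1.65 in intraTAD3, 1.65 in intraTAD2, 1.49 in 1xBorCTCF, 1.38 in 2xBorCTCF and 1.66 in wild type. The 176 gene pairs are 3.41% of the members and held 5.08% (2xBorCTCF) to 6.80% (i4CTCF) of the summed contact, with 6.16% in wild type. Of the excess over 1, they held 12.3% in i4CTCF, 8.52% in intraTAD3, 8.04% in intraTAD2, 10.7% in 1xBorCTCF, 9.24% in 2xBorCTCF and 10.1% in wild type. Most of the excess therefore lay outside the gene pairs in every map. Even without any bin of En2, Cnpy1, Mnx1 or Nom1 the other 3380 pairs averaged 1.40 (2xBorCTCF) to 1.66 (intraTAD3), with 1.65 in wild type.

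En2 with Mnx1 was the strongest of the 9 gene windows in every map, across a gap of 1302 kb. Contact of the En2 window (28,160,001 to 28,180,000) with the Mnx1 window (29,465,001 to 29,485,000) was 12.2 (11.1 to 13.3) in i4CTCF, 8.75 (8.08 to 9.42) in intraTAD3, 8.06 (7.46 to 8.65) in intraTAD2, 8.98 (8.30 to 9.65) in 1xBorCTCF, 5.54 (4.70 to 6.38) in 2xBorCTCF and 10.7 (9.90 to 11.5) in wild type. These means rest on 527 contacts in i4CTCF, 724 in intraTAD3, 789 in intraTAD2, 726 in 1xBorCTCF, 178 in 2xBorCTCF and 718 in wild type. i4CTCF was highest, 2xBorCTCF lowest, and the intraTAD2, intraTAD3 and 1xBorCTCF values lay between 2xBorCTCF and wild type. The window stood above the 25 kb around it by 2.04 (i4CTCF), 1.72 (intraTAD3), 1.54 (intraTAD2), 1.69 (1xBorCTCF), 1.34 (2xBorCTCF) and 1.76 (wild type) on the log2 scale, so it was a local peak in all 6 maps.

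Seen from Mnx1, the left flank showed 3 separate peaks. The highest on average was at En2, in the bin 28,165,001 to 28,170,000, with a contact of 15.3 in i4CTCF, 10.6 in intraTAD3, 9.31 in intraTAD2, 10.4 in 1xBorCTCF, 6.11 in 2xBorCTCF and 12.9 in wild type. In 2xBorCTCF the bin before it, at the edge of En2, was slightly higher at 6.27. The other 2 peaks were looked up after the values were seen. One lay in the bin of the Cnpy1 promoter printed above and the bin before it (28,205,001 to 28,215,000), where contact was 7.88 in i4CTCF, 6.35 in intraTAD3, 5.72 in intraTAD2, 5.82 in 1xBorCTCF, 3.72 in 2xBorCTCF and 6.54 in wild type. The other lay outside the listed genes, in the 20 kb window of the noncoding RNA gene Gm35055 (28,110,001 to 28,130,000), which also holds the start of Gm35223.

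That window had a contact with Mnx1 of 7.05 (5.93 to 8.17) in i4CTCF, 4.23 (3.66 to 4.79) in intraTAD3, 4.31 (3.77 to 4.85) in intraTAD2, 5.04 (4.43 to 5.65) in 1xBorCTCF, 3.38 (2.56 to 4.20) in 2xBorCTCF and 5.49 (4.77 to 6.21) in wild type. As at En2 in the main setting, i4CTCF was above wild type (log2 ratio 0.36, 0.06 to 0.66) and 2xBorCTCF below it (-0.70, -1.10 to -0.30). The i4CTCF rise at En2 depended on the setting, as given below, and no other setting was run for the Gm35055 window. intraTAD2 (-0.35, -0.61 to -0.09) and intraTAD3 (-0.38, -0.65 to -0.11) were also below wild type, and the 1xBorCTCF interval held 0. The Gm35055 window touched Ube3c at 0.981 (intraTAD3) to 1.15 (1xBorCTCF) in the mutant maps and 1.25 in wild type, near the average.

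Seen from En2, the right flank showed a single peak, at Mnx1. It was highest on average in the bin 29,470,001 to 29,475,000, with 16.5 in i4CTCF, 10.1 in intraTAD3, 9.38 in intraTAD2, 10.504 in 1xBorCTCF, 6.62 in 2xBorCTCF and 14.5 in wild type. The Mnx1 promoter lies in the next bin, which was the highest in intraTAD2 and 2xBorCTCF. Contact with En2 was 2 or more in all 6 maps over 40 kb (29,460,001 to 29,500,000), wider than Mnx1 itself. The median of the 76 right bins was 1.22, so away from Mnx1 the En2 window touched the flank near the average.

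**Figure D2:**
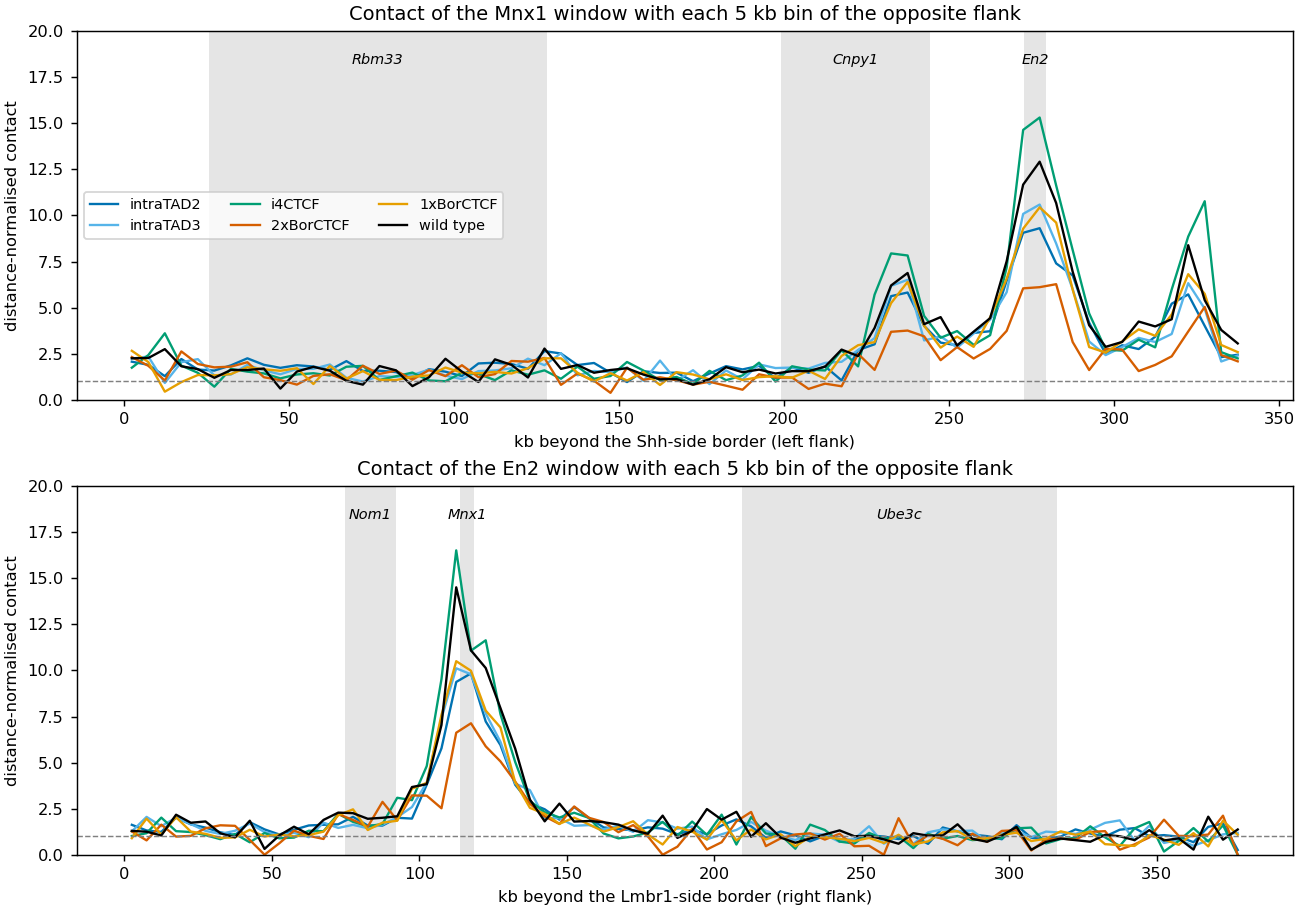
Contact of the Mnx1 window with each 5 kb bin of the left flank (top) and of the En2 window with each bin of the right flank (bottom), in each map, against kb beyond the border of the Shh domain. Grey bands mark genes and the dashed line the average of 1. Mnx1 meets peaks at En2, at Cnpy1 and about 323 kb beyond the border, while En2 meets 1 peak, at Mnx1.

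Windows of the other gene pairs were lower. Cnpy1 with Mnx1 reached 3.49 in i4CTCF, 3.04 in intraTAD3, 2.78 in intraTAD2, 2.78 in 1xBorCTCF, 1.93 in 2xBorCTCF and 3.22 in wild type, a mean over the whole gene that includes the peak at the promoter printed above. The other Cnpy1 promoter in the table (28,245,739 to 28,246,038, with 6 CG) lies at the far end of the gene. With windows of 3 bins around that start and the Mnx1 start, contact was 1.23 (1xBorCTCF) to 1.73 (intraTAD3) in the mutant maps and 1.54 in wild type. En2 with Nom1 was 2.08 in i4CTCF, 1.79 in intraTAD3, 1.78 in intraTAD2, 2.05 in 1xBorCTCF, 2.06 in 2xBorCTCF and 2.31 in wild type. Nom1 lies next to Mnx1, and the 25 kb around this window hold the whole window of En2 with Mnx1. It was lower than that ring in 5 of 6 maps, with log2 ratios of -0.54 (intraTAD2) to -0.32 (wild type). These ratios therefore do not show a dip at Nom1. Cnpy1 with Nom1 ranged between 1.54 (2xBorCTCF) and 1.75 (intraTAD2) in the mutant maps, with 1.83 in wild type.

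Rbm33, the gene nearest the Shh-side border, had a different pattern of partners. It touched Nom1 most, at 2.202 in i4CTCF, 2.31 in intraTAD3, 2.47 in intraTAD2, 2.03 in 1xBorCTCF, 1.80 in 2xBorCTCF and 2.33 in wild type. Next came Ube3c, at 1.74 in i4CTCF, 1.91 in intraTAD3, 1.88 in intraTAD2, 1.67 in 1xBorCTCF, 1.61 in 2xBorCTCF and 1.89 in wild type. Its contact with Mnx1 was the lowest of the 3 in every map, at 1.36 in i4CTCF, 1.59 in intraTAD3, 1.80 in intraTAD2, 1.51 in 1xBorCTCF, 1.52 in 2xBorCTCF and 1.52 in wild type. The intervals of Rbm33 with Mnx1 and with Ube3c overlapped in intraTAD2, 2xBorCTCF and 1xBorCTCF. Those with Nom1 and with Ube3c overlapped in 2xBorCTCF. En2 and Cnpy1 had another order. Both touched Mnx1 most in every map, with Nom1 next, and met Ube3c near the average, at 0.940 to 1.11 in the mutant maps and at 1.08 (En2) and 1.16 (Cnpy1) in wild type. For Cnpy1 in 2xBorCTCF, the intervals with Mnx1 and with Nom1 overlapped.

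**Figure D3:**
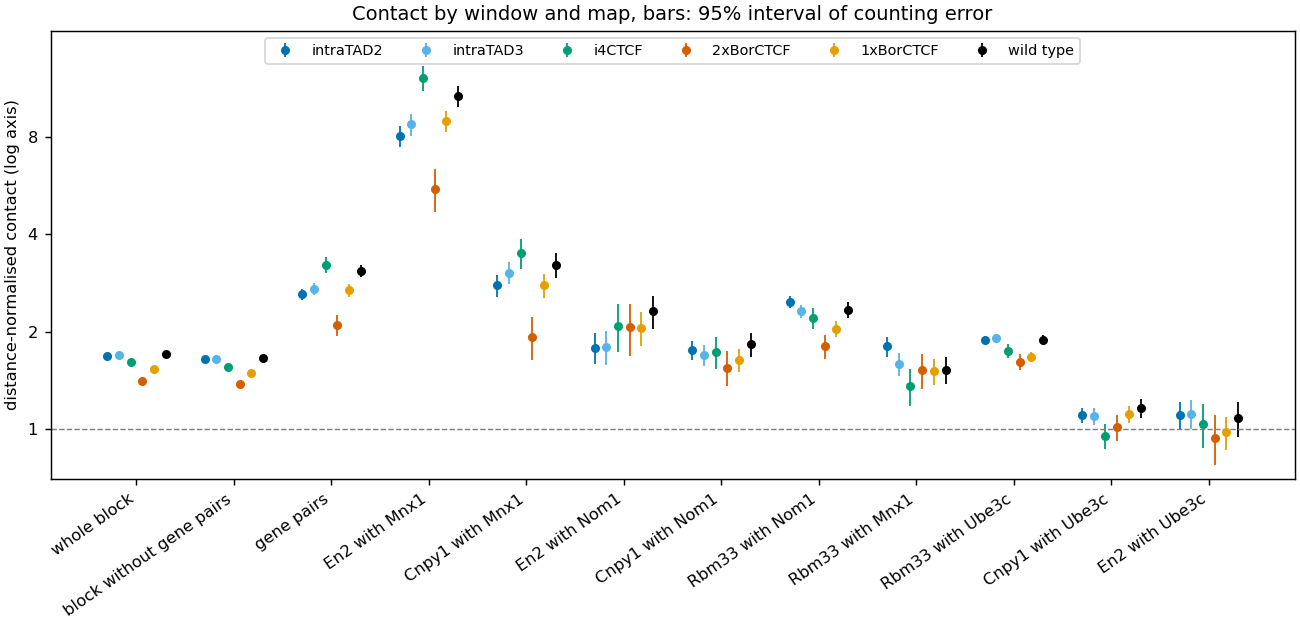
Mean distance-normalised contact (log axis) of the whole block, of its 2 subsets and of the 9 gene windows, 1 point per map with a 95% interval of counting error. The dashed line is the average of 1. En2 with Mnx1 spreads from 5.54 in 2xBorCTCF to 12.2 in i4CTCF, while the whole block stays between 1.40 and 1.71.

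Contact also differed with position along the flanks, in sets of pairs that were not cleared of genes. The corner within 50 kb of both borders averaged 3.04 (2.66 to 3.43) in i4CTCF, 3.27 (3.02 to 3.53) in intraTAD3, 3.21 (2.97 to 3.45) in intraTAD2, 2.77 (2.47 to 3.07) in 1xBorCTCF, 2.73 (2.35 to 3.10) in 2xBorCTCF and 2.9997 (2.65 to 3.35) in wild type. All 5 mutant intervals overlap that of wild type. Pairs more than 200 kb from both borders stood near the average, from 1.00 (2xBorCTCF) to 1.10 (intraTAD2) in the mutant maps and at 1.13 in wild type. The corner holds bins of Rbm33 and Lmbr1, and the far pairs hold bins of En2, Cnpy1 and Ube3c. Position and gene content were not told apart here.

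On the left flank, the bins with the highest means lay at different places from most of the highest squares. On the left, the 3 bins with the highest mean contact with the whole right flank lay next to the Shh-side border and hold no listed gene, led by the very last bin before it, at 2.06 over the 6 maps. On the right, all 3 lay at Mnx1, at 2.90, 2.66 and 2.66 from 29,470,001 to 29,485,000. Of the 6 squares of 20 kb with the highest mean, 4 joined the neighbourhood of En2 to that of Mnx1 (4.03 to 6.88), 1 joined Cnpy1 to Mnx1 (4.09) and 1 was the corner square of both borders (4.14, from 3.25 in 2xBorCTCF to 4.81 in intraTAD2, with 4.05 in wild type). A contact of 2 or more in all 6 maps was found in 20 of the 323 squares of the block (6.19%), against a background of 0.956% of 2301 squares outside the block at the same distances. Above 1 in all 6 maps stood 211 squares (65.3%), against a background of 11.7%.

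Compared with wild type, the block was lower in 3 mutant maps beyond counting error. The log2 ratio was -0.28 (-0.32 to -0.24) in 2xBorCTCF, -0.15 (-0.18 to -0.12) in 1xBorCTCF and -0.08 (-0.12 to -0.05) in i4CTCF. In intraTAD2 and intraTAD3 it was -0.02 in each (-0.05 to 0.01), and this near equality depended on the setting: the intraTAD2 ratio was -0.25 when maps were scaled by their totals and 0.09 when unlisted pairs were left out. Without the gene pairs these ratios were -0.09 in i4CTCF, -0.01 in intraTAD3, -0.01 in intraTAD2, -0.15 in 1xBorCTCF and -0.27 in 2xBorCTCF, close to those of the whole block. The 2 lowest maps are also the 2 from tetraploid aggregation, and the part of embryo generation in this result was not tested.

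The 176 gene pairs together moved apart from the other 4992 pairs in 4 of the 5 mutant maps. The log2 ratio to wild type differed between them by 0.15 (0.04 to 0.26) in i4CTCF, by -0.18 (-0.27 to -0.09) in intraTAD3, by -0.24 (-0.33 to -0.15) in intraTAD2 and by -0.30 (-0.43 to -0.16) in 2xBorCTCF, while the interval in 1xBorCTCF held 0 (-0.05, -0.15 to 0.04). Not every gene pair did so. Against wild type, En2 with Nom1 was lower in intraTAD2 and intraTAD3 (-0.37 in each) and within counting error in the other 3 maps, and Cnpy1 with Nom1 was lower in 2xBorCTCF alone (-0.24, -0.46 to -0.02).

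In 2xBorCTCF, En2 and Cnpy1 moved further from wild type in their pairs with Mnx1 than in those with Nom1. In intraTAD3 they did not. Against wild type, En2 with Mnx1 was lower in 2xBorCTCF (log2 ratio -0.95, -1.19 to -0.71), intraTAD2 (-0.41, -0.56 to -0.26), intraTAD3 (-0.29, -0.44 to -0.14) and 1xBorCTCF (-0.25, -0.41 to -0.10), and higher in i4CTCF (0.19, 0.02 to 0.36). The i4CTCF difference was no longer beyond counting error with 3 other settings, at 0.11 with the average taken outside the block, 0.04 without unlisted pairs and 0.22 over the gene bodies alone. The 1xBorCTCF difference was within counting error with unbalanced contacts, at -0.13. Relative to the ratio of all other members, En2 with Mnx1 was lower by a log2 difference of -0.68 (-0.92 to -0.43) in 2xBorCTCF, -0.39 (-0.55 to -0.24) in intraTAD2 and -0.28 (-0.43 to -0.12) in intraTAD3. It was higher by 0.28 (0.11 to 0.45) in i4CTCF, and in 1xBorCTCF the difference of -0.10 (-0.26 to 0.06) was within counting error.

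Cnpy1 with Mnx1 was lower than in wild type in intraTAD2 (-0.21, -0.38 to -0.04), 2xBorCTCF (-0.74, -0.99 to -0.49) and 1xBorCTCF (-0.21, -0.39 to -0.03), with intervals that held 0 in intraTAD3 and i4CTCF. Over the whole right flank, all 3 genes of the left flank were lower than in wild type in both maps from tetraploid aggregation. En2 was at -0.42 in 2xBorCTCF and -0.21 in 1xBorCTCF, and Cnpy1 at -0.32 in 2xBorCTCF and -0.12 in 1xBorCTCF. En2 was also lower in intraTAD2 (-0.16, -0.25 to -0.07) and intraTAD3 (-0.13, -0.22 to -0.04), and Cnpy1 in intraTAD3 (-0.07, -0.13 to -0.0049). The contact of Rbm33 with the same flank was slightly higher than in wild type in intraTAD2 (0.05, 0.01 to 0.09) and intraTAD3 (0.06, 0.02 to 0.10) and lower in 2xBorCTCF (-0.19, -0.25 to -0.14), 1xBorCTCF (-0.15, -0.20 to -0.11) and i4CTCF (-0.11, -0.17 to -0.06). Differences between the genes in these ratios were not tested. No other setting was run for the ratios over the whole right flank, and the block ratios of intraTAD2 and intraTAD3 depended on the setting. With Mnx1 alone, Rbm33 was higher in intraTAD2 (0.24, 0.07 to 0.42) and its other 4 intervals held 0.

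**Figure D4:**
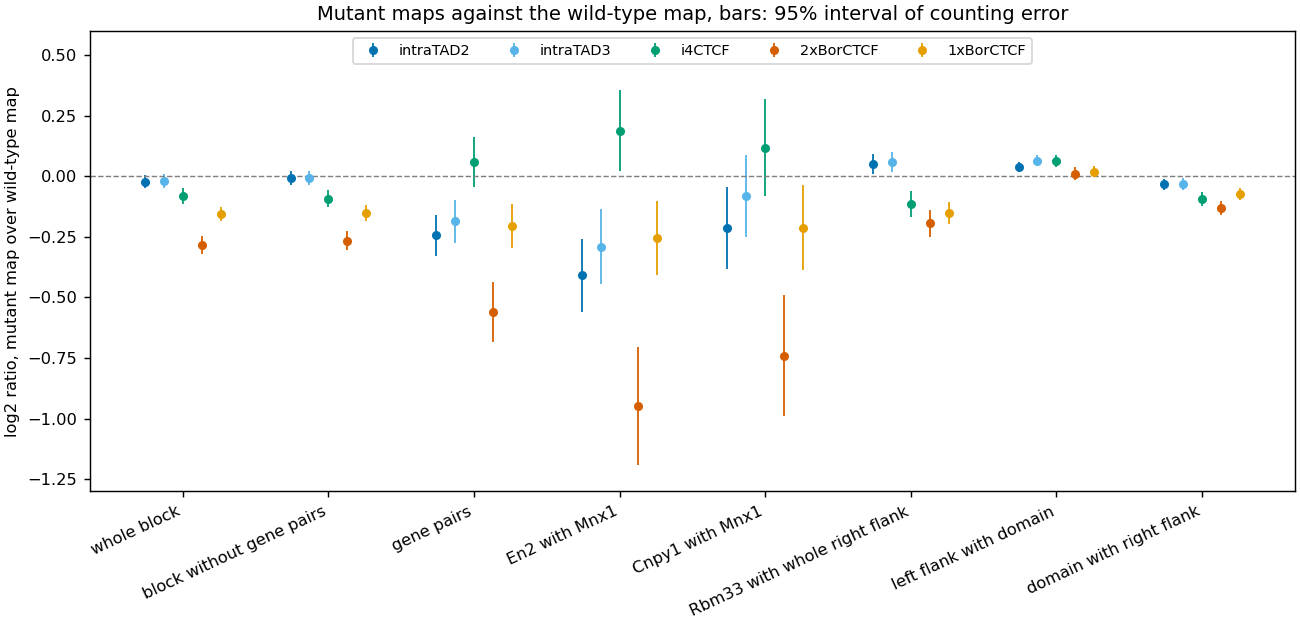
Log2 ratio of each mutant map to the wild-type map for the block, its subsets, selected gene windows and the blocks that join each flank to the Shh domain, with 95% intervals of counting error. The dashed line at 0 is no difference. For En2 with Mnx1, i4CTCF lies above the line and the other 4 maps below it, whereas for the whole block 2xBorCTCF is lowest at -0.28.

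Among the mutant maps, those whose names extend intraTAD2 were set against it. Scaled by distance, the block was lower than in intraTAD2 in i4CTCF (-0.06, -0.09 to -0.03), 2xBorCTCF (-0.26, -0.30 to -0.23) and 1xBorCTCF (-0.13, -0.16 to -0.11), and intraTAD3 did not differ from intraTAD2 (0.00, -0.02 to 0.03). The i4CTCF difference was not beyond counting error with unbalanced contacts, at -0.02. When maps were scaled by their totals instead, the 1xBorCTCF ratio turned to 0.030 and that of intraTAD3 passed counting error at -0.063. En2 with Mnx1 went the other way in i4CTCF, where it was 0.60 (0.43 to 0.76) above intraTAD2, a map from mating like i4CTCF itself. In 2xBorCTCF it was below intraTAD2 (-0.54, -0.78 to -0.30), while in intraTAD3 the ratio was 0.12 (-0.04 to 0.27). In 1xBorCTCF it was 0.16 (0.00 to 0.31), and 3 other settings put it within counting error at 0.08 to 0.13.

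2xBorCTCF and 1xBorCTCF share the tetraploid method. Between them, 2xBorCTCF was lower over the block (-0.13, -0.16 to -0.09), for En2 with Mnx1 (-0.70, -0.94 to -0.45) and for Cnpy1 with Mnx1 (-0.53, -0.78 to -0.28). Rbm33 with the whole right flank differed by -0.04 (-0.10 to 0.01), within counting error.

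Cut into 16 tiles of 85 kb by 95 kb, the block was lower than wild type beyond counting error in 5 tiles in i4CTCF, 3 in intraTAD3, 2 in intraTAD2, 11 in 1xBorCTCF and 11 in 2xBorCTCF. The background over 108 tiles outside the block was 9.26% lower in i4CTCF, 4.63% in intraTAD3, 8.33% in intraTAD2, 8.33% in 1xBorCTCF and 7.41% in 2xBorCTCF. Higher than wild type was 1 tile in intraTAD2 and 1 in intraTAD3, against a background of 8.33% for each, and 0 in the other 3 maps, against 15.7% in i4CTCF, 25% in 2xBorCTCF and 17.6% in 1xBorCTCF. The higher tile was the same one in both maps, the corner at both borders, with 2.67 in intraTAD2 (log2 ratio 0.16, 0.05 to 0.26) and 2.73 in intraTAD3 (0.19, 0.09 to 0.29). No other setting was run for the tiles, and the block ratios of these maps depended on the setting. Tiles outside the block held fewer contacts (a median of 705 against 1693 in wild type), so the same ratio passed its counting error less easily there.

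Changes of 2-fold were rare. Squares at least 2-fold lower than wild type numbered, of 323, 5 in i4CTCF, 1 in intraTAD3, 2 in intraTAD2, 2 in 1xBorCTCF and 14 in 2xBorCTCF, and 0 were 2-fold higher in any mutant map. The background of lower squares was 5.56% in i4CTCF, 2.48% in intraTAD3, 2.39% in intraTAD2, 2.69% in 1xBorCTCF and 5.26% in 2xBorCTCF, and that of higher squares was 3.74% in i4CTCF, 2.96% in intraTAD3, 2.69% in intraTAD2, 3.26% in 1xBorCTCF and 5.08% in 2xBorCTCF. The 14 squares in 2xBorCTCF are 4.33%, so no count exceeded its background. Squares outside the block held a median of 31 contacts in wild type against 71 inside, and shallow squares pass 2-fold more easily.

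The blocks that join each flank to the domain between them show how far the flank-to-flank contacts stood apart. The left flank touched the Shh domain at 1.04 in i4CTCF, 1.04 in intraTAD3, 1.02 in intraTAD2, 1.01 in 1xBorCTCF, 1.00 in 2xBorCTCF and 0.995 in wild type. The right flank touched it at 0.719 in i4CTCF, 0.750 in intraTAD3, 0.749 in intraTAD2, 0.729 in 1xBorCTCF, 0.701 in 2xBorCTCF and 0.766 in wild type. The left flank thus met the domain close to the average, above it by more than counting error in i4CTCF, intraTAD3 and intraTAD2, and the right flank met it below the average in all 6 maps. Both levels were lower than that of the flanks with each other in every map, for pairs compared at their own distances. Relative to the left flank with the domain, the ratio of the block to wild type was lower in all 5 mutant maps, from -0.06 (-0.10 to -0.03) in intraTAD2 to -0.29 (-0.34 to -0.25) in 2xBorCTCF. Relative to the domain with the right flank, it was below 0 by more than counting error in 1xBorCTCF (-0.08, -0.12 to -0.04) and also in 2xBorCTCF (-0.15, -0.20 to -0.10), with intervals that held 0 in the other 3.

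Other pairs that skip the domain stood near the average. The 5086 such pairs at the same distances, with an end outside the flanks, averaged 1.04 in i4CTCF, 1.05 in intraTAD3, 1.05 in intraTAD2, 1.03 in 1xBorCTCF, 0.986 in 2xBorCTCF and 1.05 in wild type. Compared with them, the ratio of the block to wild type was lower in 2xBorCTCF by a log2 difference of -0.19 (-0.26 to -0.11) and in 1xBorCTCF by -0.12 (-0.18 to -0.06). The difference was within counting error in intraTAD2, intraTAD3 and i4CTCF. At these distances, pairs with 1 end in the domain and 1 left of it were higher in every mutant map than in wild type (1.06). They averaged 1.14 in i4CTCF, 1.09 in intraTAD3, 1.09 in intraTAD2, 1.14 in 1xBorCTCF and 1.199 in 2xBorCTCF. These pairs enter the average that the block is divided by, and their part in the block ratios was not tested.

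Shares by destination were taken of the summed balanced values of pairs 20 kb or more apart. Of those of the left flank, the right flank took 7.91% in i4CTCF, 7.59% in intraTAD3, 7.59% in intraTAD2, 7.91% in 1xBorCTCF, 6.65% in 2xBorCTCF and 9.03% in wild type. Of the summed balanced values of the right flank, the left flank took 7.29% in i4CTCF, 6.90% in intraTAD3, 6.90% in intraTAD2, 7.21% in 1xBorCTCF, 6.05% in 2xBorCTCF and 8.17% in wild type. Wild type had the highest share from both sides, also above intraTAD2 and intraTAD3, whose distance-normalised contact it matched. In wild type 6.87% of all recovered contacts, before balancing, fell at the distances of the block, against 5.62% (intraTAD3) to 6.63% (1xBorCTCF) in the mutant maps. The shares by destination are not corrected for that.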

How the data were processed

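Capture Hi-C maps of E10.5 mouse limb buds were analysed, 1 per genotype. Formaldehyde-fixed tissue was cut with DpnII, religated, sonicated, captured with SureSelect probes and sequenced in pairs, per the labels' protocols. Bowtie2 (2.2.6) and 2 builds, mm9 and mm10, stand in the submitters' processing notes with no role given. Reads had a mapping quality of at least 30, per the file names. The deposited values are a contact signal per pair of 5 kb bins, balanced by the authors with the Knight-Ruiz method within each map, per the file names. Duplicate removal and probe positions: not given in the sources used here. The wild-type column belongs to no sample (1 column of this kind) and is the authors' value.

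Positions were read as mm10 and checked: shifting the En2 and Mnx1 windows together in 201 steps of up to 500 kb, mean contact was highest at 0 kb, with 9.03 against at most 1.79 beyond 50 kb. Dividing out the balancing factor of both bins gave whole contacts, and 100% of the recovered contacts were whole within 0.01. Unlisted pairs counted as 0. A bin whose partners numbered below 25% of the median in some map was dropped everywhere, which took out 10 bins, 0 of them in the flanks. Values were divided by the mean at their distance. Gene windows are the gene body and 1 bin either side. Intervals come from weighted Poisson errors and cover counting error only. They were tried on simulated data with the average taken outside the block. The main setting keeps the block in its average, so that run did not check the intervals given here. PCR copies are not independent molecules. Log2 ratios were given for 10 pairs of maps without a test.

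The members, gene lists and alternatives were chosen with earlier results of these data known. Named were all listed genes whose body lies in a flank with their 9 pairs, the 3 bins of each flank and the 6 squares of 20 kb with the highest mean, and per mutant map the 2 squares most changed in each direction among those with 20 or more contacts. The Cnpy1 promoter bins, Gm35223 and the Gm35055 window were named after their values were seen. Python 3.11.15, numpy 2.4.6, pandas 2.3.3, scipy 1.17.1 and matplotlib 3.10.9 were used.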

Additional observations from a re-analysis of the deposited data

How the results depend on the processing

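No paired analysis was possible because each genotype has 1 library and no test was made, and for the same reason no replicate could be left out. With wild type last and the mutant maps in the order of the names intraTAD2, intraTAD3, i4CTCF, 2xBorCTCF and 1xBorCTCF, block contact moved to 1.98, 1.99, 1.89, 1.54, 1.75 and 2.05 with the average taken from pairs outside the block. It moved to 1.54, 1.53, 1.31, 1.18, 1.35 and 1.45 without unlisted pairs, which removes more zeros from shallow maps, and to 1.82, 1.83, 1.80, 1.56, 1.74 and 1.86 with contacts before balancing. Capped at the 99th percentile it was 1.55 in i4CTCF, 1.64 in intraTAD3, 1.64 in intraTAD2, 1.496 in 1xBorCTCF and 1.66 in wild type. With no bin left out it was 1.73 in intraTAD3, 1.56 in 1xBorCTCF and 1.74 in wild type, and with 25 kb trimmed from the borders 1.65 in intraTAD3. The other 27 of 54 alternative block values moved by less than counting error. Without gene pairs, taking gene bodies only gave 1.59 in i4CTCF, 1.67 in intraTAD3, 1.67 in intraTAD2, 1.52 in 1xBorCTCF and 1.68 in wild type. With 3 bins either side it gave 1.51 in i4CTCF, 1.62 in intraTAD3, 1.62 in intraTAD2, 1.46 in 1xBorCTCF and 1.62 in wild type, and leaving out every En2, Cnpy1, Mnx1 and Nom1 bin gave 1.52 in i4CTCF. Block contact stayed above 1 in all maps under all of these.

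The block ratio to wild type kept its direction and its side of counting error in i4CTCF, 2xBorCTCF and 1xBorCTCF under every alternative run. Ratios of intraTAD2 and intraTAD3 did not. In the order of these names they were -0.051 and -0.044 with the average from outside the block, 0.089 and 0.074 without unlisted pairs, -0.031 and -0.024 before balancing, -0.25 and -0.31 scaled by map totals, and 0.061 and 0.064 against the median of the other maps. The intraTAD2 ratio was also -0.036 with no bin left out, and the intraTAD3 ratio -0.036 with trimmed borders. Against intraTAD2, i4CTCF was at -0.021 before balancing. Scaled by map totals, intraTAD3 was at -0.063 and 1xBorCTCF turned to 0.030. The map total also counts distances outside the block, whose share differs between maps. All 30 alternative ratios without gene pairs and 32 of 40 for En2 with Mnx1 kept their call. For that window intraTAD3 against intraTAD2 passed counting error in 1 alternative (0.16), and the other 7 changes are those given for i4CTCF and 1xBorCTCF above. The cause was not tested.

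Contact levels of the gene windows moved more. En2 with Mnx1 moved beyond counting error in 24 of 24 alternative values. Its range over the alternatives was 8.72 to 17.1 in i4CTCF, 7.60 to 12.2 in intraTAD3, 7.15 to 10.96 in intraTAD2, 7.55 to 12.1 in 1xBorCTCF, 3.73 to 7.26 in 2xBorCTCF and 8.48 to 15.7 in wild type. i4CTCF stayed the highest map and 2xBorCTCF the lowest in each of the 4 alternatives. Cnpy1 with Mnx1 moved in 25 of 30.

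Counts of 2-fold squares depended on size. With 15 kb squares, higher squares numbered 3 in i4CTCF, 7 in intraTAD3, 6 in intraTAD2, 3 in 1xBorCTCF and 2 in 2xBorCTCF, and lower ones 16, 5, 0, 11 and 39 in the same order of maps, of 550 squares. Each share was below its background outside the block, which was 7.09% to 10.3% for higher and 5.17% to 10.1% for lower squares. With 40 kb squares 0 were lower in any of the 5 maps. Smaller squares hold fewer contacts. The alternative that centres windows on transcription starts was run for the 5 genes other than En2.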

Other observations

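Single squares of 20 kb with the largest differences from wild type lay mostly away from the named gene pairs. In intraTAD2 the largest rise was between Rbm33 (28,365,001 to 28,385,000) and 29,480,001 to 29,500,000 beside Mnx1, with a contact of 1.80 against 1.03 in wild type (161 and 60 contacts, log2 ratio 0.81). The second was between 28,145,001 to 28,165,000 and 29,700,001 to 29,720,000, with 1.15 against 0.724 (0.66), and this square was also the largest rise in intraTAD3 (1.299, 0.84) and the second in 2xBorCTCF (1.22, 0.76). It held 20 contacts in wild type. The square that joins the last 20 kb before the Shh-side border to the start of Nom1 was second in intraTAD3, at 2.78 against 1.63 (0.77), and first in i4CTCF, at 2.89 (0.83). The other rises were 1.64 against 0.988 in i4CTCF (Rbm33 with 29,500,001 to 29,520,000), 1.43 against 0.805 in 2xBorCTCF (the farthest 20 kb of the left flank with Ube3c), and 1.36 against 0.781 and 1.15 against 0.706 in 1xBorCTCF, at the far end of the right flank.

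Of the 2 most lowered squares of each mutant map, 10 in all, 6 were squares with the last 20 kb of the right flank, where Dnajb6 starts. That stretch is 20 of the 380 kb of the flank. Some of the 6 are the same square in several maps, set against the same wild-type value, so they are not independent. Cnpy1 with that stretch was at 0.889 in intraTAD2, 0.651 in intraTAD3 and 0.850 in 1xBorCTCF, against 1.78 in wild type on 38 contacts. The lowest of these ratios was in i4CTCF, between the Shh-side border and that stretch, at 0.310 on 5 contacts against 1.49 on 15 in wild type (-2.26). The last bin of the right flank had a contact with the left flank of 0.448 in i4CTCF, 0.568 in intraTAD3, 0.605 in intraTAD2, 0.595 in 1xBorCTCF and 0.588 in 2xBorCTCF, against 0.991 in wild type. It held 10 contacts in i4CTCF, 36 in intraTAD3, 36 in intraTAD2, 30 in 1xBorCTCF and 17 in 2xBorCTCF, against 80 in wild type. Wild type was the highest of the 6 maps at this bin. The remaining falls were 0.730 against 1.46 in intraTAD2, 0.673 against 1.204 in intraTAD3 (both with Ube3c), 0.683 against 1.66 in 2xBorCTCF (Cnpy1 with 29,540,001 to 29,560,000) and 1.09 against 2.79 in 1xBorCTCF (the last 20 kb before the Shh-side border with 29,520,001 to 29,540,000).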
